A study of Homo sapiens with 10 samples.

Results

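The miR-183, miR-96 and miR-182 cluster is a group of human microRNA (miRNA) genes on chromosome 7 that gives rise to 6 mature strands. Its members were chosen as the 6 array probe sets named for either arm of miR-183, miR-96 and miR-182, out of 1080 human mature miRNA probe sets with a name, and 4 of the 6 were among the 322 probe sets (29.8%) that counted as detected. The strands were measured with Affymetrix miRNA 2.0 arrays in total RNA of HEK-293 cells, an immortalised line from human embryonic kidney. All cells had been transiently transfected with a small interfering RNA (siRNA) at 10 nM. There were 5 groups of 2 arrays: LINC00324 siRNA 1, LINC00324 siRNA 2, LOC400043 siRNA 1, LOC400043 siRNA 2, and a scramble siRNA as control. LINC00324 and LOC400043 are long noncoding RNAs that the series examines as possible miRNA sponges, that is, RNAs that bind miRNAs. The comparisons ask whether the cluster's strands differ in level when either RNA is silenced. The labels speak of biological replicates, but none states that the cultures were separate, so the spread behind each p-value is that between arrays and may be technical. The arrays hold no probe for the targeted RNAs in the tables used here, and the extent of silencing is unknown.

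The hairpins of the cluster lie close together on one strand and are processed from a shared primary transcript, and the cluster is conserved across bilaterian animals. It is known for high levels in sensory organs, such as the retina and the hair cells of the inner ear, and for raised levels in many carcinomas. Each hairpin yields a 5p strand, which in this cluster is the main guide strand that directs the silencing complex to messenger RNAs, and a 3p strand, which is mostly degraded. Target choice rests largely on the seed, the short stretch near the 5′ end of the guide.

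The mature strands are shown because the 5p seeds are nearly alike, which bears on which strands can share targets and on how far probes of relatives can be told apart. Their probe sets are hsa-miR-183_st and hsa-miR-183-star_st, hsa-miR-96_st and hsa-miR-96-star_st, and hsa-miR-182_st and hsa-miR-182-star_st, where star marks the 3p strand. The strands are written 5′ to 3′ with the seed (bases 2 to 8) in capitals, as the deposited tables and RefSeq (GRCh38.p14) give them, and the last line is a relative from chromosome 5.
miR-183-5p: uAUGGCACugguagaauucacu
miR-183-3p: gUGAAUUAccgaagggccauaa
miR-96-5p: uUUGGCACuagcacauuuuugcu
miR-96-3p: aAUCAUGUgcagugccaauaug
miR-182-5p: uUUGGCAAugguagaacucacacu
miR-182-3p: uGGUUCUAgacuugccaacua
miR-1271-5p: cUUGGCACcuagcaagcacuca

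All 3 of the cluster's 5p strands hold the letters UGGCA at positions 3 to 7, a feature of 5 of the 1080 named human probe sets. The other 2 are miR-1271-5p and miR-3128. Counted from 1 at the 5′ end and with miR-96-5p first, the first 8 bases differ by U2A in miR-183-5p, by C8A in miR-182-5p and by U1C in miR-1271-5p. The last change lies outside the seed, so miR-96-5p and miR-1271-5p have the same seed, while the seed of each of the other 5 members occurs in 1 probe set. miR-183-5p and miR-182-5p also share the run UGGUAGAA beyond the seed, and over the whole strand, seed included, they have the same base at 18 of 22 positions. The 3p strands have seeds of their own.

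All members lie on the minus strand of chromosome 7 (GRCh38.p14, from the RefSeq gene table). MIR183 spans chr7:129774905-129775014, MIR96 chr7:129774692-129774769 and MIR182 chr7:129770383-129770492. Only 135 bases separate MIR183 from MIR96, against 4199 bases between MIR96 and MIR182, and the cluster covers 4632 bases. It overlaps no other gene of that table. The nearest protein-coding genes are NRF1, which ends 13306 bases below the cluster, and UBE2H, which begins 55717 bases above it. The mature strands were located at chr7:129774967-129774988 (miR-183-5p), chr7:129774928-129774949 (miR-183-3p), chr7:129774739-129774761 (miR-96-5p), chr7:129774697-129774718 (miR-96-3p), chr7:129770447-129770470 (miR-182-5p) and chr7:129770406-129770426 (miR-182-3p). Their GC content was alike, between 39.1% for miR-96-5p and 45.5% for miR-183-3p.

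The deposited values come from 2 normalization runs, which touches every LOC400043 result. The LINC00324 arrays share a run with scramble values in the series' value table, while the LOC400043 arrays belong to a second run, which holds its own values of the same 2 scramble arrays. Each target was therefore set against the scramble values of its own run. The shift between runs was largest of all 322 detected probe sets, in size, for miR-183-3p, whose scramble mean was 1.54 in the second run and 2.69 in the first, a difference of −1.15. The shift was 0.37 for miR-183-5p, −0.13 for miR-96-5p and 0.12 for miR-182-5p, against a median of 0.08 and an SD of 0.25 over the detected probe sets. Taken across runs, miR-183-3p would have appeared 1.32 lower on the log2 scale after LOC400043 silencing (−1.32, adjusted p = 0.0307 in limma), whereas within the second run the difference was −0.17 (adjusted p = 0.747). The r of replicate arrays over detected probe sets ran from 0.973 to 0.988, with precision limited by having 2 arrays a group.

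**Figure D1:**
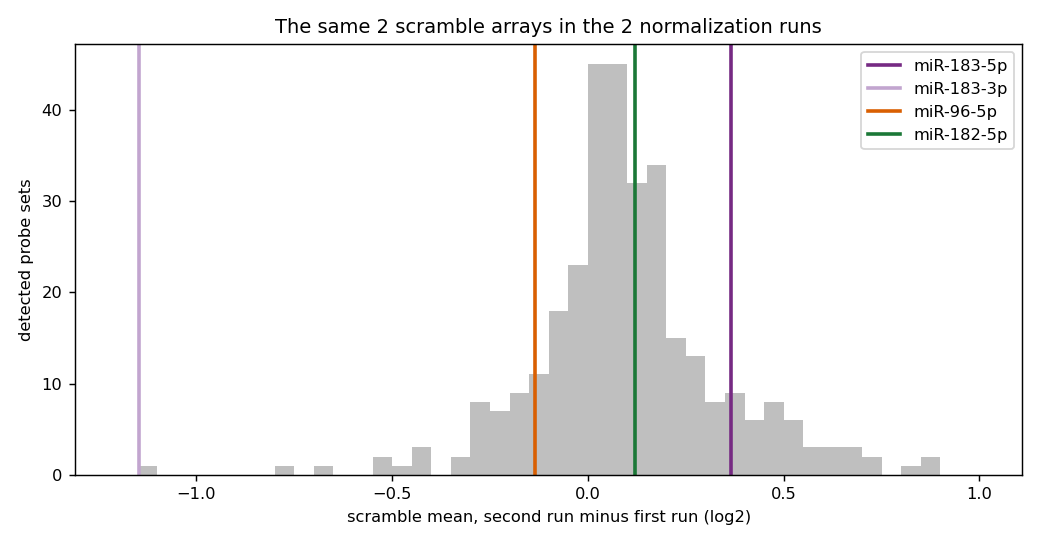
Histogram of the shift of the scramble mean between the 2 normalization runs (second minus first, log2, x axis) over the 322 detected human mature probe sets (y axis, number of probe sets), with vertical lines for the 4 detected members. miR-183-3p lies at the lower end at −1.15, while the other members lie between −0.13 and 0.37.

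The members ranged from clearly measured to undetected. Levels are log2 signals, and a probe set passed as detected with a 10-array mean over a floor of 1.30, the 95th percentile of that mean over 2839 plant probe sets on the same arrays. Both means pool arrays of the 2 runs as deposited. Set within runs, the floor was 1.28 in the first and 1.37 in the second, and the same 4 members were detected in the first run, miR-96-5p not in the second (mean 1.30, with 1.77 in the first). The second-run floor comes from plant probe sets on the LOC400043 arrays alone, while second-run member means also include the scramble arrays. The pooled mean of miR-183-3p stands for neither run, its means being 2.69 in the first and 1.42 in the second. The 10-array mean was 7.80 for miR-182-5p, 4.71 for miR-183-5p, 2.16 for miR-183-3p and 1.48 for miR-96-5p, and 0.84 for miR-182-3p and 0.77 for miR-96-3p, the closest below the floor. Probe sets differ in their response, so these means are given in no order of abundance. On single arrays, miR-182-5p and miR-183-5p lay above the floor on 10 of 10, miR-183-3p was below it on 2 and miR-96-5p on 5. Both other 3p strands were below it on all 10, with values between 0.56 and 1.06 for miR-96-3p and between 0.55 and 1.09 for miR-182-3p, and had no test. Their differences from scramble were −0.06 and 0.15 after LINC00324 silencing and 0.14 and 0.21 after LOC400043 silencing, all of them between values under the floor.

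**Figure D2:**
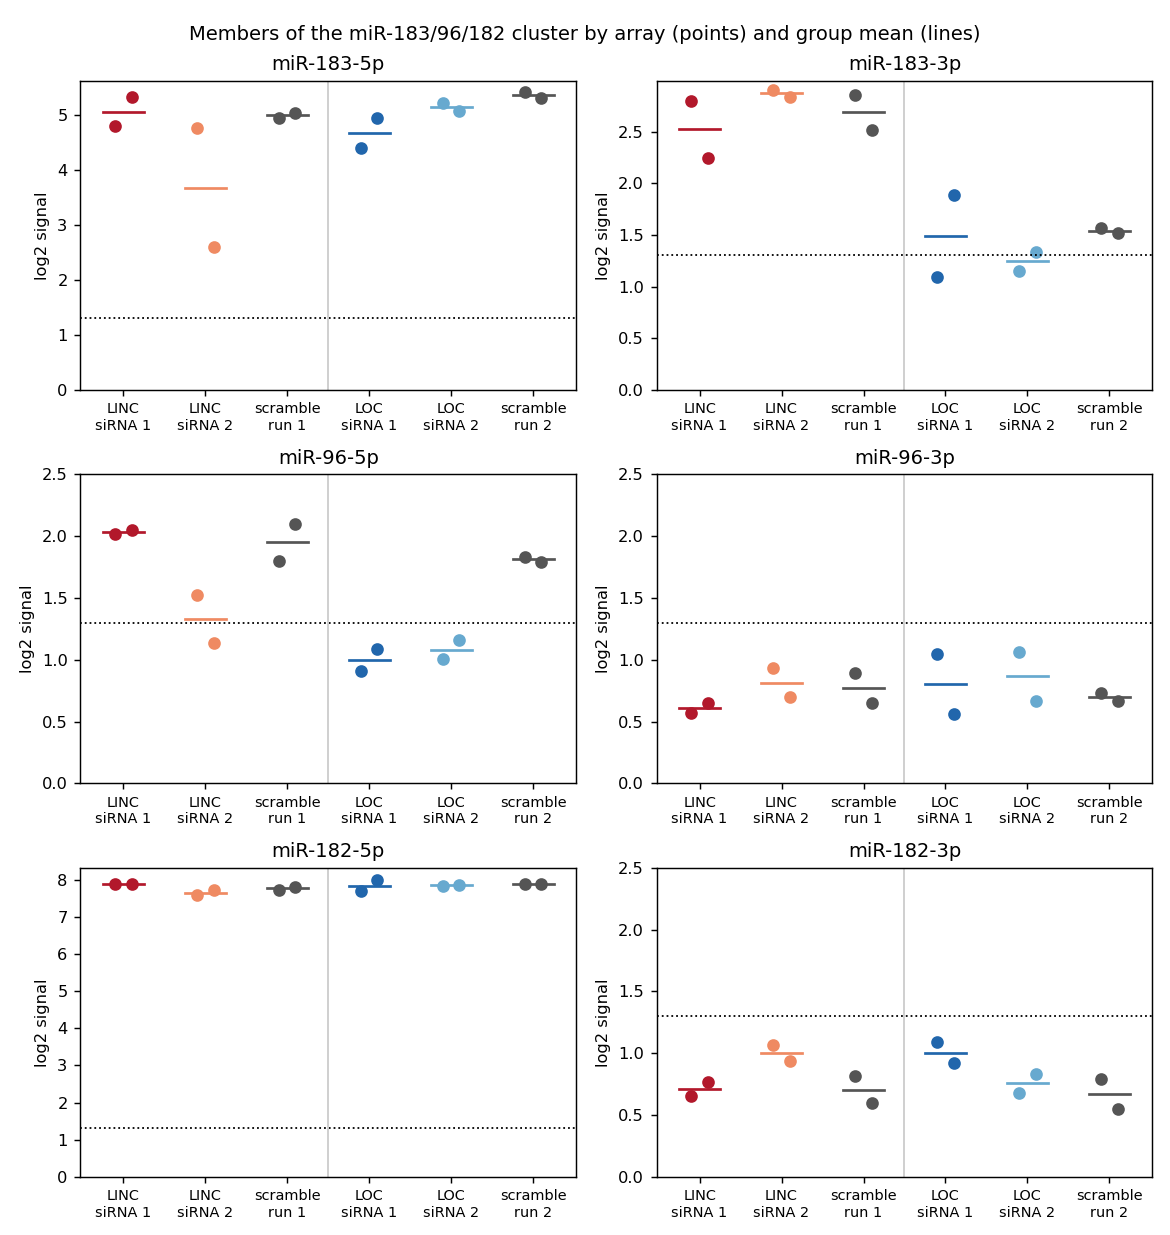
Log2 signal (y axis, a separate scale per panel) of the 6 members on each array, with points for arrays and lines for group means of 2 arrays; the dotted line is the detection floor of 1.30 and the grey line divides the 2 normalization runs. For miR-96-5p all 4 LOC400043 arrays lie below the floor and below both scramble arrays of their run, and for miR-183-5p 1 LINC00324 siRNA 2 array stands alone at 2.59.

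After LOC400043 silencing, miR-96-5p was the member with the largest difference, at 0.78 below scramble on the log2 scale. It did not pass (adjusted p = 0.0530 in limma). It was tested because its mean pooled over both runs lay above the floor. Within the second run, where this comparison was made, its mean over LOC400043 and scramble arrays was 1.297. That was below the floor of 1.365, which was set on the LOC400043 arrays alone. The test therefore holds a strand that does not count as detected in that run. miR-96-5p is the strand in which seed mutations cause hereditary hearing loss. Its signal was 0.91 and 1.08 with siRNA 1 and 1.00 and 1.16 with siRNA 2, against 1.84 and 1.79 in scramble cells. The 4 silenced arrays thus lay below both scramble arrays, and all 4 lay below the detection floor, so that the silenced level has only an upper bound. With the silenced level set at the floor, miR-96-5p was 0.51 lower in silenced than in scramble cells, or 1.43-fold lower. From the floor of the second run alone it was 0.45 lower, or 1.37-fold. These values rest on the mean of 2 scramble arrays, carry no interval and are no guaranteed minimum. The arrays read total RNA of many cells of 1 line, so a lower level in all cells and in part of them cannot be told apart.

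The fitted difference of miR-96-5p was −0.78 (SE 0.17, 95% interval −1.17 to −0.38), with an unadjusted p of 0.0023 in limma and rank 13 by p among 322. Group means were 1.00 ± 0.13 with siRNA 1 and 1.08 ± 0.11 with siRNA 2, against 1.82 ± 0.03 in scramble cells (SD, n = 2 each). Both siRNAs lay on the same side of scramble, by −0.82 and −0.73. In the authors' deposited table of this comparison miR-96-5p had a log2 difference of −0.776 with p = 0.00025, the third lowest of 1080. With each array centred on its median the difference was −0.51 (adjusted p = 0.322), beside a median of 0.12 for all detected probe sets, which was −0.14 without centring.

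miR-183-5p, whose loss together with its cluster partners impairs photoreceptors in mice, also had all 4 LOC400043 arrays below both scramble arrays. Its signal was 4.41 and 4.94 with siRNA 1 and 5.23 and 5.07 with siRNA 2, against 5.42 and 5.32 in scramble cells. The gap was narrow with siRNA 2 and the test did not pass (difference −0.45, SE 0.55, 95% interval −1.75 to 0.84, adjusted p = 0.674 in limma). The fit shares 1 spread over all groups, including the LINC00324 siRNA 2 arrays, which differed widely for this strand. With the LOC400043 and scramble arrays alone the adjusted p was 0.235. Arrays without overlap on the lower side were no rarity here, with 23% of detected probe sets showing the same, against 2 of the 4 members tested.

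miR-182-5p, a strand known to repress FOXO transcription factors and to be raised in melanoma, had no difference that passed. It read 7.69 and 7.99 with LOC400043 siRNA 1 and 7.85 and 7.88 with siRNA 2, against 7.89 and 7.89 in scramble cells, and the groups overlapped. The interval of the difference ran from −0.35 to 0.27 (estimate −0.04, SE 0.13, adjusted p = 0.875 in limma). For miR-183-3p, the passenger strand, the signals were 1.09 and 1.88 with siRNA 1 and 1.15 and 1.34 with siRNA 2, against 1.56 and 1.52 in scramble cells. These values straddled the floor, and 3 of the LOC400043 arrays lay below the second run's own floor of 1.37. The difference of −0.17 (SE 0.26, 95% interval −0.80 to 0.45) was within the spread.

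In this comparison 0 of the 4 members passed an adjusted p of 0.05 in limma, where 1.55% of all detected probe sets did, and 1 member, miR-96-5p, had an unadjusted p under 0.05, where 25.2% of all did. All 4 differences were negative, with a median of −0.31 against −0.14 over all detected probe sets, though miR-182-5p and miR-183-3p turned positive under median centring, quantile normalization and removal of each array's trend with GC content.

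After LINC00324 silencing, 0 of the 4 members passed in limma, where 9.32% of all detected probe sets did, and 0 had an unadjusted p under 0.05, where 23.3% did. The median difference of the members, −0.13, was close to that of all detected probe sets, −0.14. By mean, 3 of the 4 members read lower with siRNA 2 than with siRNA 1, though none passed when the siRNAs were compared directly. Medians over all detected probe sets were lowest on the siRNA 2 arrays, at 3.45 and 3.77. miR-183-5p had 4.81 and 5.32 with siRNA 1 and 4.76 and 2.59 with siRNA 2, against 4.95 and 5.05 in scramble cells. The 1 array at 2.59 stood far from the other 5, and its partner at 4.76 lay only just below scramble, which gave siRNA 2 a mean of 3.68 ± 1.53 against 5.00 ± 0.07 in scramble cells (SD, n = 2 each). The difference over both siRNAs was −0.63 (SE 0.55, 95% interval −1.92 to 0.66, adjusted p = 0.587). It rested on that array: without it the difference was −0.09 (adjusted p = 0.885), and without its partner −1.17 (adjusted p = 0.0355), a call that rests on 1 siRNA 2 array assumed to vary like the other groups.

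For miR-96-5p the LINC00324 arrays read 2.02 and 2.05 with siRNA 1 and 1.52 and 1.14 with siRNA 2, against 1.80 and 2.10 in scramble cells. Both siRNA 2 arrays lay below scramble, 1 of them under the floor, while the siRNA 1 arrays lay between the scramble values. The difference over both siRNAs was −0.27 (SE 0.17, 95% interval −0.66 to 0.12, adjusted p = 0.423), and with median centring it turned to 0.15. miR-182-5p gave 7.88 and 7.89 with siRNA 1 and 7.59 and 7.72 with siRNA 2, against 7.74 and 7.80 in scramble cells. The siRNA 1 arrays were above and the siRNA 2 arrays below both scramble arrays, so that the mean difference was −0.00097 (SE 0.13, 95% interval −0.31 to 0.31, adjusted p = 0.994). miR-183-3p gave 2.80 and 2.25 with siRNA 1 and 2.90 and 2.84 with siRNA 2, against 2.85 and 2.52 in scramble cells, with overlapping groups and a difference of 0.01 (SE 0.26, adjusted p = 0.983).

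The targets were then compared with each other, each against the scramble values of its own run, which asks whether LINC00324 silencing left a member higher or lower than LOC400043 silencing did. miR-96-5p was higher after LINC00324 than after LOC400043 silencing by 0.51 on the log2 scale (SE 0.14, 95% interval 0.19 to 0.83, adjusted p = 0.0329 in limma), although with the GC trend of each array removed the difference was −0.01 (adjusted p = 0.965). The effects behind it were −0.27 for LINC00324 and −0.78 for LOC400043, but all 4 LOC400043 arrays and 1 LINC00324 siRNA 2 array lay below the floor, so the size of the difference is not well measured. miR-96-5p entered this test through the LINC00324 and scramble arrays, its first-run mean being 1.77. The detection filter and the comparison thus draw on the same high values, and with no filter the call was lost. For every member compared between targets, the SE, interval and p leave out the error of bringing the runs together. That step rests on the 2 scramble arrays, which for miR-96-5p read 1.80 and 2.10 in the first run and 1.84 and 1.79 in the second. By siRNA, the means stood at 0.08 and −0.62 from scramble for LINC00324 siRNA 1 and siRNA 2, and at −0.82 and −0.73 for LOC400043 siRNA 1 and siRNA 2. This was 1 of 4 members, in a comparison in which 25.2% of all detected probe sets passed, and 10.6% of all passed as higher, and miR-96-5p ranked 71 by p. The call was lost with median centring (0.66, adjusted p = 0.0574) and in 8 of the 10 fits that left out 1 array (all but those without LINC00324 siRNA 2 replicate 2 or scramble replicate 2). Over all 10 fits the difference stayed between 0.34 and 0.68, with adjusted p from 0.0182 to 0.134.

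The other members did not pass between targets. The difference was −0.17 for miR-183-5p (SE 0.45, adjusted p = 0.815), 0.18 for miR-183-3p (SE 0.22, adjusted p = 0.620) and 0.04 for miR-182-5p (SE 0.11, 95% interval −0.21 to 0.29, adjusted p = 0.816). The interval was narrowest for miR-182-5p and widest for miR-183-5p, for which it ran from −1.23 to 0.88.

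A direct comparison of the siRNAs against LINC00324 asked whether a pair of sequences for 1 target differ. miR-96-5p was at 1.33 ± 0.27 with siRNA 2 and 2.03 ± 0.02 with siRNA 1 (SD, n = 2 each), a difference of −0.70 (SE 0.19, 95% interval −1.16 to −0.25) that did not pass over all probe sets (adjusted p = 0.136 in limma, unadjusted p = 0.00796). miR-183-5p was at 3.68 ± 1.53 with siRNA 2 and 5.07 ± 0.36 with siRNA 1, and its difference of −1.39 (SE 0.63, adjusted p = 0.345) again rested on the array at 2.59, being −0.31 without it. miR-182-5p was at 7.66 ± 0.10 with siRNA 2 and 7.88 ± 0.01 with siRNA 1, and its difference of −0.23 (SE 0.15, adjusted p = 0.531) did not pass. miR-183-3p differed in the other direction, at 2.87 ± 0.04 with siRNA 2 and 2.52 ± 0.39 with siRNA 1 (difference 0.35, SE 0.30, adjusted p = 0.659). In this comparison 0 of 4 members passed, where 2.17% of all detected probe sets did, and 1 had an unadjusted p under 0.05, where 14.9% did. The siRNA 2 arrays also had the lowest median signal over detected probe sets, 3.45 and 3.77, against 4.17 and 4.11 with siRNA 1 and 4.40 and 4.18 in scramble cells. With arrays centred on that median the difference of miR-96-5p was −0.18 and that of miR-182-5p turned to 0.30, while all probe sets had a median of 0.47.

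The siRNAs against LOC400043 were compared in the same way. Between siRNA 2 and siRNA 1, miR-96-5p differed by 0.08 (SE 0.19, 95% interval −0.37 to 0.54, adjusted p = 0.893), miR-182-5p by 0.02 (95% interval −0.34 to 0.38) and miR-183-3p by −0.24 (SE 0.30, adjusted p = 0.752). miR-183-5p differed by 0.47 (SE 0.63, 95% interval −1.02 to 1.97, adjusted p = 0.759), the widest interval of the 4. None of the 4 members passed (0 of 4 in limma, also at an unadjusted p under 0.05), where 1.55% and 14.3% of all detected probe sets did.

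**Figure D3:**
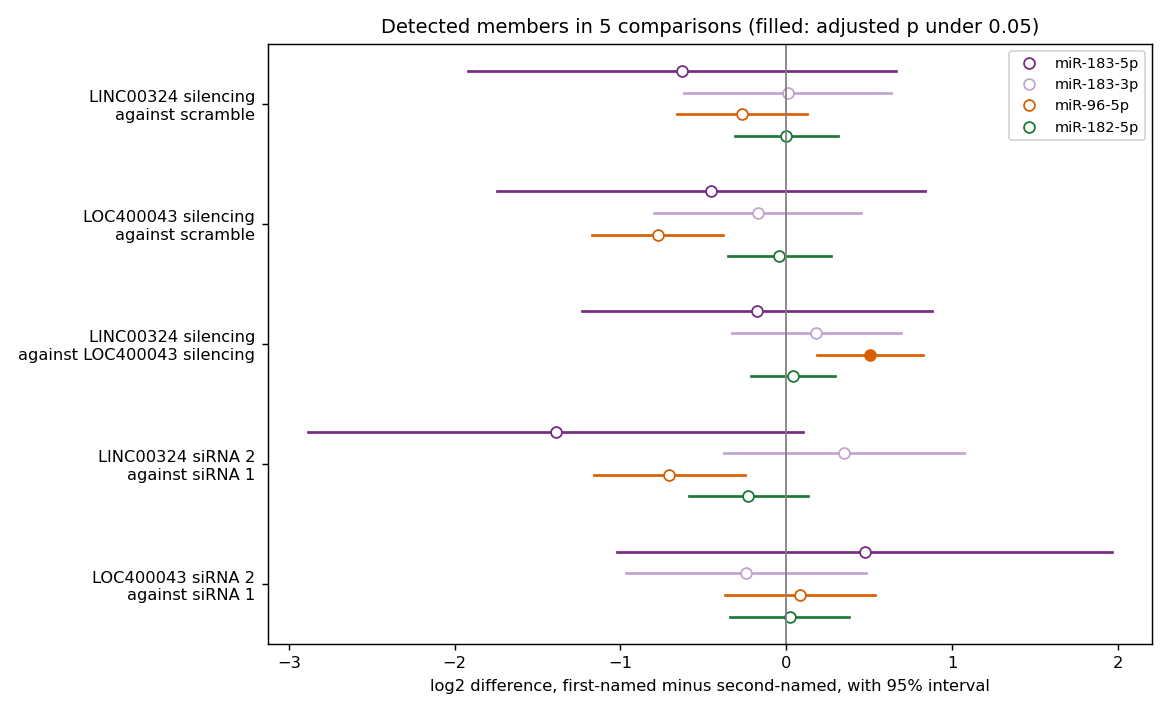
Log2 difference (x axis, first-named group minus second-named) of the 4 detected members in 5 comparisons (y axis), with 95% intervals from limma; filled points passed an adjusted p of 0.05. The only filled point is miR-96-5p in LINC00324 against LOC400043 silencing at 0.51, and the intervals of miR-183-5p are the widest and those of miR-182-5p the narrowest. Intervals between targets leave out the error of bringing the runs together.

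The arrays also hold probe sets named for the same miRNAs in other animals, which offers another reading of the same RNA, though not an independent one, as all share the arrays. Their sequences were not used here, and they were matched by name. As the cluster is conserved, many of them may read nearly the same sequence, so counts of them are not counts of separate measurements. For miR-183-5p there were 26 such probe sets from 26 species, 23 of them above the floor, and for miR-182-5p 20, of which 14 were above it. With LINC00324 siRNA 2, the miR-183-5p probe sets were below scramble in 23 of 23 cases by the mean of the deposited values, though not with median centring, with a median difference of −0.55 (−1.23 to −0.12). On 18 of 23 (78.3%) both siRNA 2 arrays lay below both scramble arrays, where 40.8% of 2847 other-animal probe sets above the floor did. For miR-182-5p the differences were negative in 14 of 14, with a median of −0.32 (−1.19 to −0.09), and 11 of 14 (78.6%) showed no overlap. The corresponding human probe sets had −1.32 and −0.12, with no overlap for either, as had 41.9% of the detected human probe sets.

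This depended on the scaling. With each array centred on its median, 1 of 23 miR-183-5p probe sets lay below both scramble arrays and 7 lay above, and for miR-182-5p 1 of 14 lay below and 9 above. The median differences were then 0.13 and 0.36, both less than the 0.53 of all other-animal probe sets. As deposited, the median over those probe sets was −0.15. With LINC00324 siRNA 1 the medians were 0.06 for miR-183-5p and 0.08 for miR-182-5p, against 0.02 for all, and differences were negative in 8 of 23 and 3 of 14.

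The gap between the LINC00324 siRNA 2 replicates was wider for the human miR-183-5p probe set than for any of these 23. Replicate 2 differed from replicate 1 by −2.17 on the human probe set. Within the other-animal probe sets the same difference had a median of −0.08 and ran from −1.34 to 1.59, with 12 of 23 negative. For miR-96-5p 3 of 25 other-animal probe sets exceeded the floor, with a highest 10-array mean of 1.33, and of the 3p strands 1 of 2 for miR-183, 0 of 2 for miR-96 and 0 of 3 for miR-182 did. The miR-96-5p result therefore rests on the human probe set.

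**Figure D4:**
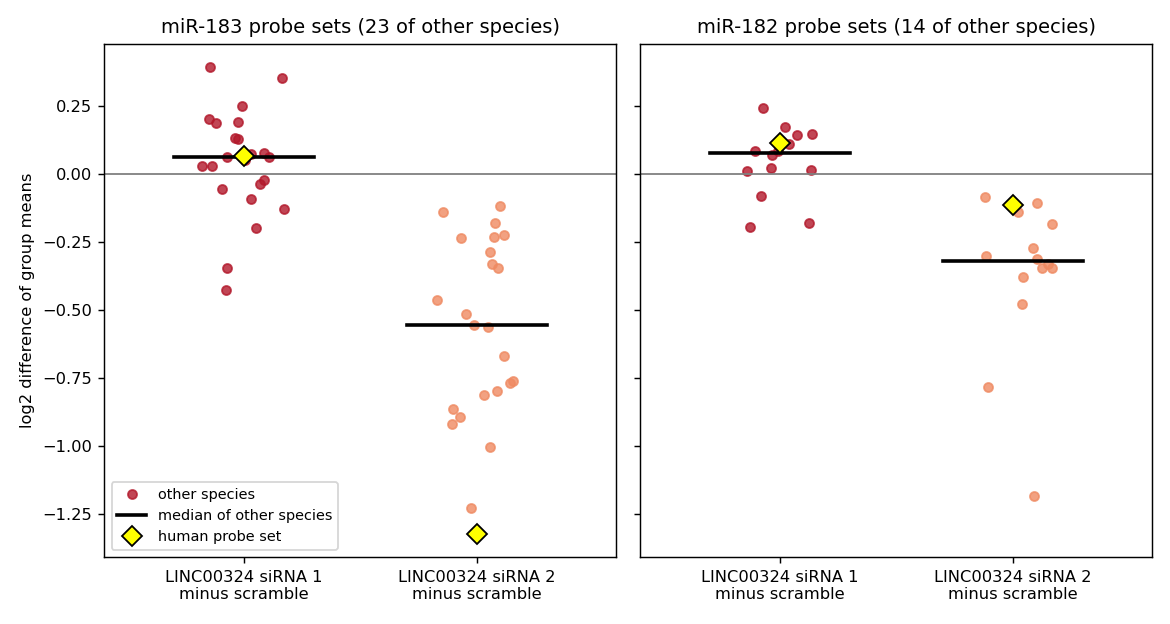
Log2 difference from scramble (y axis) of miR-183-5p (left) and miR-182-5p (right) probe sets of other animals (circles), with their median (bar) and the human probe set (diamond), for LINC00324 siRNA 1 and siRNA 2 (x axis). With siRNA 2 all circles lie below 0, with medians of −0.55 and −0.32, and with siRNA 1 they scatter around 0.

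The hairpin probe sets read the precursor. On the LINC00324 and scramble arrays, those of mir-183 and mir-182 lay on both sides of the floor, with a highest value of 1.91. There and on the LOC400043 arrays, the mir-96 hairpin was under it on 10 of 10 arrays. The mir-183 hairpin read 1.22 and 1.33 with LINC00324 siRNA 1 and 1.61 and 1.25 with siRNA 2, against 1.29 and 1.29 in scramble cells. The mir-182 hairpin read 1.11 and 1.73 with siRNA 1 and 1.67 and 1.49 with siRNA 2, against 1.22 and 1.91 in scramble cells, so the groups overlapped. On the LOC400043 arrays, for which no scramble value of the same run was used, the mir-182 hairpin lay above the floor on all 4, at 1.99, 2.28, 2.56 and 2.58, and the mir-183 hairpin read 1.58, 1.01, 1.44 and 1.79, in the order of siRNA 1 and then siRNA 2.

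miR-1271-5p, which has the seed of miR-96-5p, read 6.23 and 6.38 with LOC400043 siRNA 1 and 6.59 and 6.31 with siRNA 2, against 6.75 and 6.59 in scramble cells. The difference was −0.30 (adjusted p = 0.381), and after LINC00324 silencing it was −0.20 (adjusted p = 0.602). Between targets miR-1271-5p differed by 0.09 (adjusted p = 0.724). Of 21 probe sets marking other cell types, 4 were detected: 1 of 6 for epithelium, 1 of 5 for blood, 1 of 2 for neurons and 1 of 3 for endothelium and mesenchyme, with 0 of 4 for muscle and 0 of 1 for liver. In the miR-200 family, which marks epithelium, 1 of 5 was detected, miR-200c-3p, at 0.07 after LINC00324 silencing (adjusted p = 0.907) and 0.11 after LOC400043 silencing (adjusted p = 0.791). Between LINC00324 siRNA 2 and siRNA 1, miR-200c-3p differed by −0.71 (adjusted p = 0.286, unadjusted p = 0.0356), close to the −0.70 of miR-96-5p there. The endothelial marker miR-126-3p had the highest mean of the 21, at 4.14, and differed by −1.17 after LOC400043 silencing (adjusted p = 0.0577), by 0.73 between LINC00324 and LOC400043 silencing (adjusted p = 0.0582) and by −1.32 between LINC00324 siRNA 2 and siRNA 1 (adjusted p = 0.102), without passing. The sign was that of miR-96-5p in each of these comparisons and after LINC00324 silencing (−0.44 and −0.27). It was not between LOC400043 siRNA 2 and siRNA 1, at −0.48 for miR-126-3p and 0.08 for miR-96-5p. After LOC400043 silencing the remaining detected markers differed by 0.11 (miR-200c-3p), 0.19 (miR-451a) and −0.05 (miR-124-3p). In the same order, they differed between targets by −0.04, 0.02 and −0.03. Between LINC00324 siRNA 2 and siRNA 1 the values were −0.71, −0.39 and 0.35. All samples were of 1 cell line, so these markers are read as single strands and not as shares of cells. Why miR-126-3p and miR-96-5p shared signs in some comparisons and not in another was not tested.

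Between members, Pearson's r over the 10 arrays, brought to 1 run, ranged from −0.237 to 0.606. It was 0.606 between miR-183-5p and miR-96-5p, 0.548 between miR-96-5p and miR-182-5p and 0.344 between miR-183-5p and miR-182-5p. Between the arms of miR-183 it was −0.237. These are descriptions over 10 arrays in 5 groups, which share normalization and array-wide differences in signal. Among the other 321 detected probe sets, the profiles most like that of miR-96-5p were those of miR-374b-5p (r = 0.861), miR-26a-5p (0.836) and miR-766-3p (0.830). For miR-183-5p they were miR-766-3p (0.773), miR-149-5p (0.762) and miR-7-5p (0.743), and for miR-182-5p miR-23a-3p (0.803), miR-99b-5p (0.799) and miR-505-5p (0.797). miR-183-3p was most like miR-671-5p (0.858), miR-202-5p (0.759) and miR-425-5p (0.707).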

How the data were processed

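Total RNA of 10 samples was hybridised to 1 array each, and samples were grouped by the siRNA in their labels. The authors deposited normalized log2 signals in a value table of 20706 probe sets, and in 2 tables of 1130 human rows, 1 per target, with log2 differences and p-values, per the file headers. The submitters' processing notes name limma without a version. Background correction, summarization and normalization method are not given in the sources used. The value table joins the 2 runs, so the LOC400043 arrays were brought to the first run by the difference of the scramble means per probe set. The standard errors do not include the error of that step. The resulting LOC400043 differences equal those deposited within 5e-04. Another 4 per-sample columns, in the LOC400043 table, match no label and were not used. Of 1100 human mature probe sets, 1080 had a name in the deposited tables.

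Tests used limma 3.58.1 in R 4.3.3: 1 mean per group over all 10 arrays (5 residual and 1.91 prior degrees of freedom), contrasts, eBayes and Benjamini-Hochberg adjustment over the 322 detected probe sets at 0.05. The script was tested on simulated data. Silencing effects average a target's siRNA groups and subtract scramble. Members, lists and tests were chosen with earlier results of these data known. Named were all members, their hairpins, miR-1271, the miR-200 family, and the 3 profiles most like each detected member by Pearson's r. miR-126-3p, miR-451a and miR-124-3p, from the list of cell type markers, were named after their values were seen. Replicate numbers did not pair the arrays: the correlation of deviations between same-numbered arrays was over 0.1 in 1 of 10 pairs of groups (−0.15 to 0.16). Alternatives were other scalings, floors, fits and left-out arrays. Figures used matplotlib 3.10.9 in Python 3.11.15.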

Additional observations from a re-analysis of the deposited data

Results flagged for a closer look

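The effect of silencing on miR-96-5p differed between the targets: LINC00324 minus LOC400043 silencing gave 0.51 on the log2 scale (adjusted p = 0.0329 in limma), with effects of −0.27 and −0.78 against scramble. All 4 LOC400043 arrays lay below the detection floor and below both scramble arrays. miR-96-5p counted as detected through its first-run arrays, so the filter and the comparison draw on the same values. The targets were normalized in separate runs, and the adjusted p leaves out the error of bringing them together. What the difference comes from was not tested.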

How the results depend on the processing

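Among the members, 339 of 390 recomputed differences kept direction and side of the threshold, 13 lost the call, 5 gained one and 33 changed sign. The single member called between targets, miR-96-5p, was not called with median centring, the GC trend removed (−0.012), no detection filter, the replicate block (adjusted p = 0.0589), the stricter floor (2 members tested), each target as 1 group, or a variance trend with robust moderation, each of which gave 0 members; the value table as deposited gave 2, and leaving out 1 array 0 to 1. The value table as deposited also gave 2 members for LOC400043 against scramble, miR-183-3p and miR-96-5p, where the runs mix. Without 1 array in turn, LINC00324 against scramble and LINC00324 siRNA 2 against siRNA 1 gave 0 to 1 members, the 1 being miR-183-5p without siRNA 2 replicate 1 (−1.17 and −2.47), and both LOC400043 comparisons 0 to 0. Signs turned for miR-182-5p with median centring (LINC00324 0.42, LOC400043 0.23, LINC00324 siRNA 2 against siRNA 1 0.30), with the GC trend removed (LOC400043 0.20, between targets −0.40, between LOC400043 siRNAs −0.13), with quantile normalization (LOC400043 0.018, between targets −0.074, between LOC400043 siRNAs −0.038) and as deposited (LOC400043 0.080, between targets −0.081). For miR-183-3p they turned with median centring (LOC400043 0.095), quantile normalization (LOC400043 0.19) and the GC trend removed (LINC00324 −0.13, LOC400043 0.0049, between targets −0.14), and for miR-96-5p with median centring (LINC00324 0.15) and the GC trend removed (between LOC400043 siRNAs −0.094). Leaving out 1 array gave for miR-182-5p −0.035 to 0.033 (LINC00324), −0.11 to 0.033 (LOC400043), −0.034 to 0.11 (between targets) and −0.13 to 0.17 (LOC400043 siRNAs), for miR-183-3p −0.16 to 0.18, −0.37 to 0.026, −0.017 to 0.38 and −0.64 to 0.15 in the same comparisons, for miR-183-5p between targets −0.72 to 0.37, and for miR-96-5p between LOC400043 siRNAs −0.0037 to 0.17. Median centring moved the median of all detected probe sets by 0.42 (LINC00324), 0.27 (LOC400043), 0.15 (between targets) and 0.53 (LINC00324 siRNAs), and quantile normalization by 0.16 and 0.15 for the targets. A floor set per run (353 probe sets), chosen after seeing the data, changed no member's call. The replicate numbers did not pair the arrays, and the block changed no other member's call. The cause of these changes was not tested.

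Over all detected probe sets, LINC00324 against scramble gave 30 calls (1 higher, 29 lower), 11 with median centring (7 higher, 4 lower), 19 in a fit of its own arrays, 16 with each target as 1 group and 0 to 33 without 1 array, 0 being without scramble replicate 1. LOC400043 against scramble gave 5 calls (2 higher, 3 lower), 12 with median centring (10 higher, 2 lower), 9 in a fit of its own arrays, 3 with the GC trend removed, 36 with the stricter floor, 1 with each target as 1 group, 23 as deposited, 41 with a variance trend and 0 to 8 without 1 array. Between targets there were 81 calls, and 55 to 74 without 1 array. LINC00324 siRNA 2 against siRNA 1 gave 7, and 3 with median centring, 0 in its own fit (40 at an unadjusted p under 0.05 in limma), 2 with quantile normalization, 1 with the block and 1 to 3 without 1 array. LOC400043 siRNA 2 against siRNA 1 gave 5, and 3 with median centring or the stricter floor, 2 in its own fit or with the block, 20 with a variance trend and 0 to 7 without 1 array. Signal near the floor limits miR-96-5p and miR-183-3p, and hides miR-96-3p and miR-182-3p.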
